A study of Mus musculus with 18 samples.

Results

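The proteasome genes of mouse liver were followed in 18 mice, and 49 of the 54532 genes in the deposited table belonged to them. They were the protein-coding genes whose symbols begin with Psm, continue with a letter from a to g and end with a number, in Psme2b followed by a further letter, and the rule itself uses no measured value. The table held 22046 protein-coding genes in all. RNA was sequenced from the liver of 6 normal control (NC) mice, 6 high-fat diet (HFD) mice and 6 HFD mice given SZ-A, the alkaloid fraction of mulberry twig. All were male C57BL/6J mice (C57BL/6 in the labels), 6 weeks old at the start and fasted overnight at the end. NC mice ate a standard diet throughout and received no SZ-A. HFD mice ate the high-fat diet for 14 weeks and then stayed on it while receiving saline. SZ-A mice did the same with SZ-A in place of saline, for 8 weeks by the deposited description and 6 by the study's methods, and the dose and route of the sequenced mice are not named. For NC6 the diet label reads high-fat while the title reads chow, and it was kept in NC by its title. Levels are FPKM, that is, fragments per kilobase of exon scaled to the library size the authors used. A gene is called changed where limma gave a Benjamini-Hochberg adjusted p under 0.05 over all 10216 genes with a mean of at least 1 FPKM, and a fold change over 1.2. Differences between groups are given in log2 units, computed after adding 0.1 FPKM to each value, with standard errors (SE), and they understate the change of low genes. The p-values weigh differences between group means against the spread between mice within groups, with 1 library per mouse.

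The proteasome degrades proteins that carry ubiquitin. Its 20S core particle is a barrel of alpha and beta rings, with the catalytic sites of Psmb5, Psmb6 and Psmb7 on the inside. The 19S regulatory particle caps the barrel: the base holds the ATPases Psmc1 to Psmc6 that unfold the substrate, and the lid holds the deubiquitinase Psmd14. Dedicated chaperones, among them Psmg1 to Psmg4 for the core and Psmd5, Psmd9 and Psmd10 for the base, help to assemble the particles. Interferon induces Psmb8, Psmb9 and Psmb10, which replace the constitutive catalytic subunits in the immunoproteasome and favour peptides for antigen presentation, and it also induces the PA28 activator of Psme1 and Psme2.

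Fragments on genes totalled 17163191 to 20493907 per mouse, as worked back from the FPKM. The hepatocyte markers were abundant and 8 of 8 passed the filter, whereas the summed T cell and B cell markers stayed at or below 2.71 FPKM in every mouse. NC5 and NC6 stood apart from the other NC mice: NC5 had the highest level of its group for 25 of the 31 core subunits, here the tested subunits of the 20S and 19S particles. NC6, whose diet label reads high-fat, had the lowest for 28 of 31.

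In liver of HFD mice the proteasome genes moved in 3 ways. The constitutive 20S and 19S subunits were modestly lower, the assembly chaperone Psmd9 fell to well under its NC level, and the immunoproteasome subunits Psmb8, Psmb9 and Psmb10 rose. Of the 47 members tested, 17 were called in HFD against NC, where 20.2% of all tested genes were called: 14 fell (9.49% of all genes) and 3 rose (10.7%). At an unadjusted p under 0.05 there were 28 members (34.8% of all genes), 25 lower (18.3%) and 3 higher (16.6%). The HFD and NC mice did not overlap for 8 members (10.5%), 6 of them lower in HFD (4.97%) and 2 higher (5.48%). SZ-A against HFD gave 1 called member (0.147%), Psmd9, which rose (0.0783% of all genes), and no member fell (0.0685%). Over all genes, this fit called 15 there. With DESeq2 at the same thresholds the study reported many more changed genes between these groups, and the reason was not tested. In the present fit of SZ-A against HFD, 18 members were at an unadjusted p under 0.05 (14.8%), all higher (8.74%) and none lower (6.09%). Groups without overlap numbered 2 (1.28%), both higher in SZ-A (0.793%) and none lower (0.489%). SZ-A against NC gave 5 called members (9.6%), of which 3 rose (5.31%) and 2 fell (4.3%), and 14 at an unadjusted p under 0.05 (25.5%), 5 higher (13.6%) and 9 lower (11.9%). There, 4 members did not overlap (5.5%), 2 lower (2.67%) and 2 higher (2.83%). The remaining 2 members did not pass the filter. Psma8, an alpha subunit of spermatogenesis, had 0.179 to 0.893 FPKM. Psmb11, the catalytic subunit of the thymoproteasome, was at 0 in 17 mice and at 0.0387 FPKM in NC5.

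**Figure D1:**
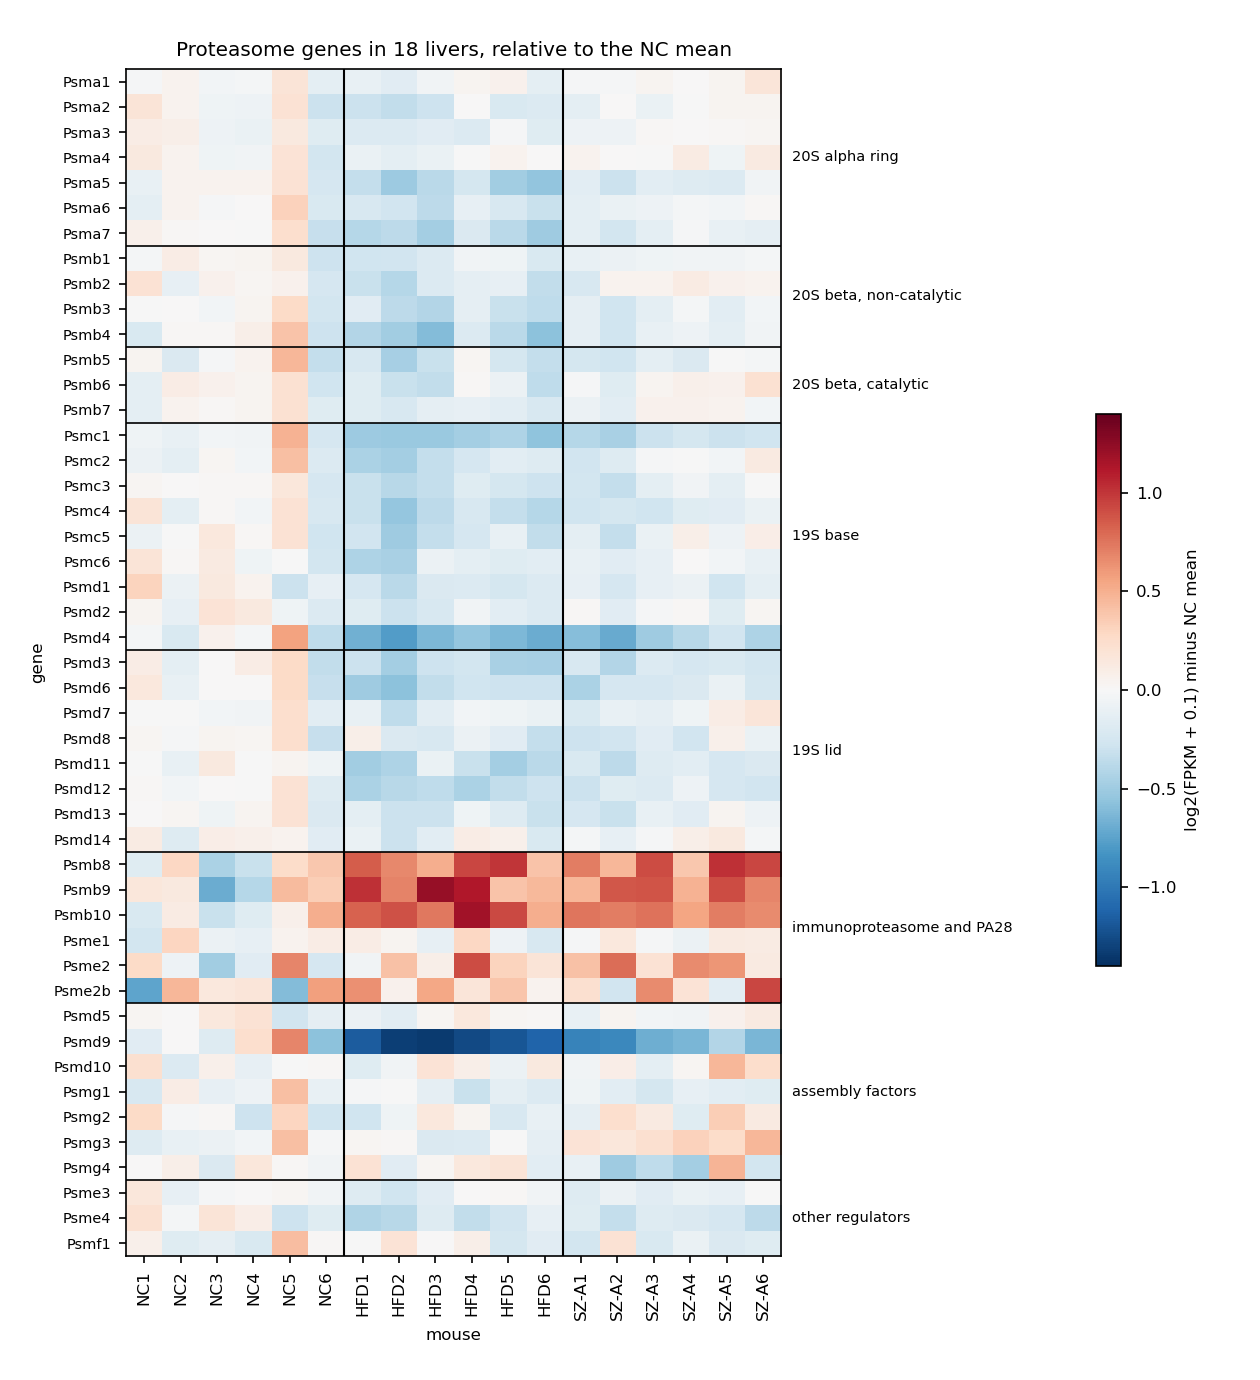
Level of each of the 47 tested proteasome genes (rows, by subcomplex) in each of the 18 mice (columns), as log2(FPKM + 0.1) minus the mean of the 6 NC mice, with blue lower and red higher. The core subunits were pale blue in HFD mice and paler in SZ-A mice, Psmd9 was the darkest blue row, and Psmb8, Psmb9 and Psmb10 were red in HFD and SZ-A mice alike.

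Psmd9 had the largest change of the 47 members in HFD against NC. It is a PDZ domain chaperone that binds the base ATPases before the 19S particle is complete. In the files' build, GRCm38, the gene lies on the plus strand at chr5:123169413-123250131. Its level was 7.76 to 18.6 FPKM in NC mice (median 10.99), 4.52 to 5.28 in HFD mice (median 4.88) and 6.02 to 8.73 in SZ-A mice (median 7.29). Every HFD mouse was below every NC mouse and below every SZ-A mouse, and the lowest NC mouse, NC6, was below the highest SZ-A mouse. The means were 12.04 ± 3.76 FPKM for NC mice (SD, n = 6), 4.88 ± 0.301 for HFD mice and 7.15 ± 0.993 for SZ-A mice. In HFD against NC it fell by 1.23 on the log2 scale (SE 0.16, limma adjusted p = 0.000304), and it was called lower under all 23 alternative settings, at -1.35 to -1.04. Against HFD, SZ-A mice showed a rise of 0.53 (SE 0.09, limma adjusted p = 0.0380), and its level remained 0.70 below NC on the log2 scale (SE 0.17, limma adjusted p = 0.0236). The call of SZ-A against NC held in 20 of 23 alternatives, with limma adjusted p up to 0.0833. The rise under SZ-A passed the test in 10 of 23 alternatives, with adjusted p from 0.0106 to 0.133. It missed the test without any 1 of HFD1, HFD2, HFD3, HFD4, HFD6, SZ-A3, SZ-A4 or SZ-A6, although the difference stayed between 0.36 and 0.58 in all 23.

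**Figure D2:**
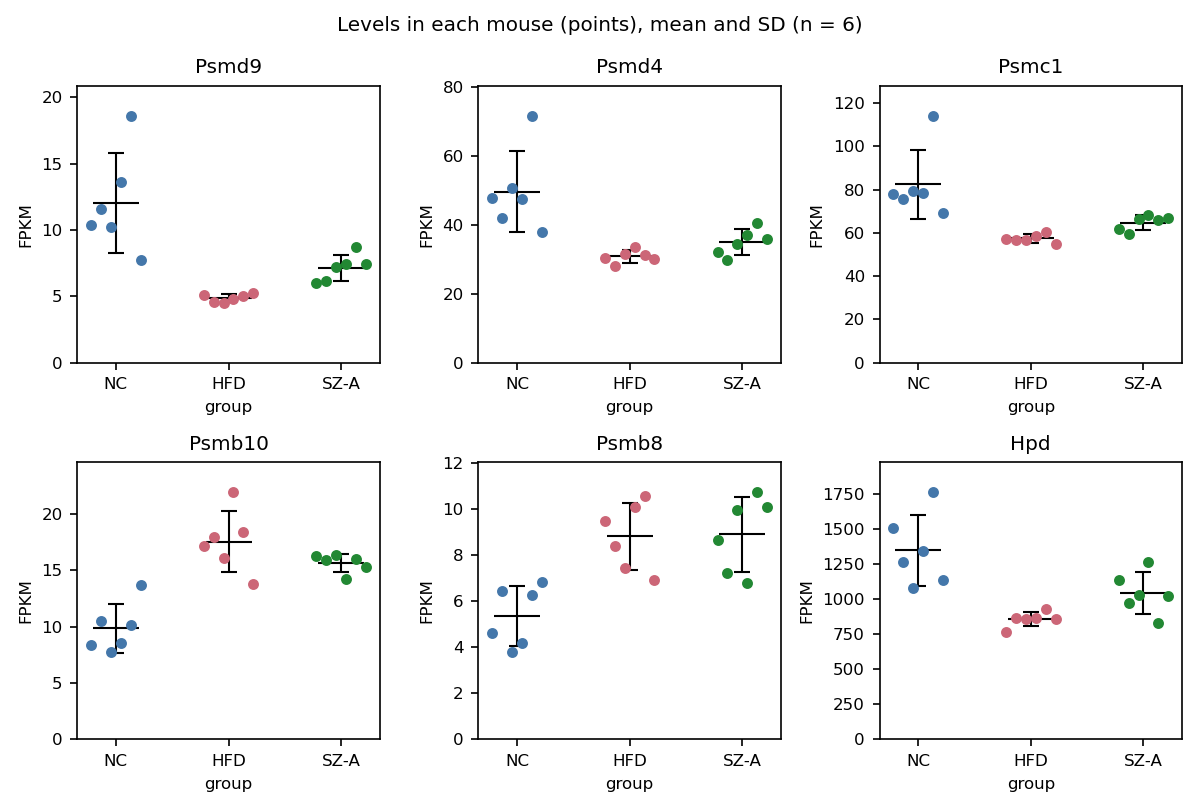
FPKM of Psmd9, Psmd4, Psmc1, Psmb10, Psmb8 and the Psmd9 neighbour Hpd in each mouse (points), by group, with mean and SD (n = 6). The 6 HFD mice sat between 4.52 and 5.28 FPKM for Psmd9, below all NC and SZ-A mice, whereas for Psmb8 the HFD and SZ-A mice covered the same range.

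The 250 bases before the RefSeq start of Psmd9 (GRCm38.p6) are shown with those of Psmd4, the core subunit that fell most, and of Psmb10, the member that rose most, since these 3 genes mark the extremes of the family. Capitals mark the core letters of an antioxidant response element (TGACNNNGC) or of an interferon-stimulated response element (GAAA, any 2 bases, GAAA), on either strand.
Psmd9, chr5:123227940-123228189, plus strand: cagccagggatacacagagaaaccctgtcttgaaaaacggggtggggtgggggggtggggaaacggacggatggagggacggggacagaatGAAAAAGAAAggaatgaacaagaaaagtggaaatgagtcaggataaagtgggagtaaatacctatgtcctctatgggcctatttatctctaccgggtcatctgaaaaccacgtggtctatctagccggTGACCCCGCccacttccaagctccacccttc
Psmd4, chr3:95042615-95042864, minus strand: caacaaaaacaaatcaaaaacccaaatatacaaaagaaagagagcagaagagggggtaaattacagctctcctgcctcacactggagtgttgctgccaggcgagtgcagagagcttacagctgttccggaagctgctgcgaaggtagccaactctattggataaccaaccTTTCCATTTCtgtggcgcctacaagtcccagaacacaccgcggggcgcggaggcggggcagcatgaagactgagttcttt
Psmb10, chr8:105938393-105938642, minus strand: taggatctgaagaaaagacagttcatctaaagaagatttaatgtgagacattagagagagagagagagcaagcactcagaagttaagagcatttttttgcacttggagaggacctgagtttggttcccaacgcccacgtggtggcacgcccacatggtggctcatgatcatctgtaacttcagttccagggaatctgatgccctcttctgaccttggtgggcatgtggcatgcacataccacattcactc
The Psmd9 window held both motifs, TGACCCCGC and GAAAAAGAAA. Psmd4 held the interferon motif on the opposite strand, as TTTCCATTTC, and the Psmb10 window held neither set of letters. Promoter windows of 300 bases (250 before and 50 after the start) were matched for 41 of the 49 members. The antioxidant motif was found in 6 of these 41 (14.6%) and in 14.0% of all 27025 genes with a window. The interferon motif was found in 5 of 41 (12.2%) and in 3.99% of all genes: in Psmd9, Psmd4, Psmb3, Psmg4 and Psme1. Psmd9 was the only member with both, as were 0.503% of all genes. These are matches of letters and not tests of binding.

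Psmd9 shares its locus with other genes, and the library kit does not mark strand. Hpd, the dioxygenase of tyrosine breakdown and a highly expressed liver gene, lies on the minus strand at chr5:123171807-123182727, inside an intron of a long non-coding Psmd9 transcript. Hpd had 1082 to 1765 FPKM in NC mice, 768 to 929 in HFD mice and 831 to 1268 in SZ-A mice. It fell by 0.64 in HFD against NC (SE 0.12, limma adjusted p = 0.00235), as Psmd9 did, and between SZ-A and HFD its difference was 0.27 (SE 0.10, limma adjusted p = 0.218). No exonic base of Psmd9 lies within Hpd, and the main coding transcript of Psmd9, 2597 bases in 6 exons, starts 45463 bases beyond it. The part of Hpd reads in the Psmd9 values was not tested. The antisense gene Gm26745, 1874 bases long, shares 1849 exonic bases with Psmd9, 25.5% of the Psmd9 exons, and was listed at 0 in all 18 mice. How fragments on shared bases were assigned is not known, so this 0 does not show that Gm26745 was silent. Setd1b, a histone methyltransferase gene upstream, had means of 3.09 ± 0.910 FPKM (NC), 2.28 ± 0.0981 (HFD) and 2.83 ± 0.569 (SZ-A) and was not called in any comparison. Wdr66, Gm43409 and Rpl35a-ps6 stayed below 0.34 FPKM in every mouse.

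The other assembly factors were not called. None of these 6 passed the test in any comparison, and their log2 differences in HFD against NC lay between -0.13 for Psmg1 and 0.04 for Psmg4. Psmd5 and Psmd10, which chaperone the same base as Psmd9, differed by -0.00 (SE 0.09, limma adjusted p = 0.998) and 0.02 (SE 0.09, limma adjusted p = 0.904). Psmg4, which with Psmg3 assists the alpha ring, had the lowest value of the group in SZ-A against HFD, -0.25 (SE 0.15, limma adjusted p = 0.473), and SZ-A5 alone had 17.0 FPKM where the other SZ-A mice had 8.63 to 11.4. Psmg3, named after its values were seen, had 1.81 to 2.13 FPKM in HFD mice and 2.35 to 2.91 in SZ-A mice without overlap, but its difference of 0.35 (SE 0.08) missed the threshold (limma adjusted p = 0.0880).

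The constitutive core was lower in HFD mice. All 31 core subunits had a log2 difference below 0 in HFD against NC, from -0.66 for Psmd4 to -0.04 for Psma4, with a median of -0.25 where the median of all tested genes was -0.03. Of the 31, 13 fell (41.9%, against 9.49% of all genes) and none rose. By subcomplex, 2 of 7 alpha subunits, 2 of 4 non-catalytic beta subunits, 0 of 3 catalytic beta subunits, 5 of 9 base subunits and 4 of 8 lid subunits fell. At an unadjusted p under 0.05, 23 of the 31 were lower (18.3% of all genes), 1 of the 3 catalytic subunits (Psmb7) among them. Of the 8 hepatocyte markers, 7 had a log2 difference below 0 in HFD against NC, with a median of -0.38. Of the 8, 3 fell (37.5%, against 9.49% of all genes), namely Apoa1, Cps1 and Tat, none rose and 5 were not called. Those 5 ran from -0.47 for Alb (limma adjusted p = 0.0558) to 0.01 for Ttr. Summed levels, of which Alb was the largest part, were 38670 to 57680 FPKM in NC mice, 24290 to 42580 in HFD mice and 30980 to 54410 in SZ-A mice. The part of hepatocytes in the fall of the core was not tested.

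In the 19S base, Psmd4 changed most. Psmd4 is a ubiquitin receptor of the proteasome. It had 38.0 to 71.7 FPKM in NC mice (median 47.7), 28.1 to 33.5 in HFD mice (median 30.9) and 29.7 to 40.4 in SZ-A mice (median 35.2). No HFD mouse reached the NC range, and of the SZ-A mice SZ-A5 alone did. It fell by 0.66 in HFD against NC (SE 0.13, limma adjusted p = 0.00291). It was still 0.48 lower in SZ-A than in NC on the log2 scale (SE 0.13, limma adjusted p = 0.0399), and that call held in 14 of 23 alternatives. Psmc1, an ATPase of the ring, had 69.3 to 114 FPKM in NC mice, 54.8 to 60.4 in HFD mice and 59.5 to 68.5 in SZ-A mice, with no overlap of NC with either other group. It fell by 0.50 in HFD against NC (SE 0.10, limma adjusted p = 0.00465), and in SZ-A against NC the difference was -0.33 (SE 0.11, limma adjusted p = 0.0686). The ATPases Psmc3, Psmc4 and Psmc5 also fell, by 0.29 to 0.36. Psmc4 went from 45.4 ± 5.32 FPKM in NC to 35.1 ± 2.53 in HFD without overlap. Psmc2, with a difference of -0.30 (limma adjusted p = 0.0563), and the scaffold subunits Psmd1 (-0.24) and Psmd2 (-0.18) missed the threshold.

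In the lid, Psmd3, Psmd6, Psmd11 and Psmd12 fell by 0.36 to 0.38. Psmd12 separated the groups completely, at 29.0 to 37.9 FPKM in NC mice and 24.2 to 27.0 in HFD mice (limma adjusted p = 0.00245). Psmd11, a lid scaffold subunit, had 16.6 ± 0.954 FPKM in NC mice, 12.9 ± 1.41 in HFD mice and 14.2 ± 0.714 in SZ-A mice, and HFD3 alone of the HFD mice reached the NC range. The SZ-A mice lay wholly below NC, with a difference of -0.23 (SE 0.06, limma adjusted p = 0.0396) whose fold was under 1.2. The deubiquitinase Psmd14 differed least in the lid, at 17.1 ± 1.52 FPKM in NC and 16.1 ± 1.79 in HFD (-0.10, limma adjusted p = 0.478). Psmd8 was at -0.16 (limma adjusted p = 0.270).

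In the 20S core, Psma5, Psma7, Psmb3 and Psmb4 fell. Psma5, an alpha ring subunit, had 40.5 to 55.0 FPKM in NC mice, 32.5 to 40.3 in HFD mice and 38.6 to 46.3 in SZ-A mice. It was the only 20S subunit whose HFD mice all lay below the NC mice, and it fell by 0.42 (SE 0.09, limma adjusted p = 0.00444). Psma4, another alpha subunit, had the smallest core difference, at 43.6 ± 4.71 FPKM in NC and 42.1 ± 2.13 in HFD. Psmb4 fell by 0.44 (SE 0.11, limma adjusted p = 0.0154), Psma7 by 0.39 and Psmb3 by 0.29, while Psmb1 was at -0.18 (limma adjusted p = 0.143). The catalytic subunits Psmb5, Psmb6 and Psmb7 had 119 ± 23.9, 59.8 ± 7.20 and 26.6 ± 2.57 FPKM in NC and 98.4 ± 11.4, 51.7 ± 5.64 and 23.6 ± 0.789 in HFD. Their differences of -0.26, -0.21 and -0.17 did not pass the test (limma adjusted p = 0.119 to 0.158). Among the other regulators, Psme4, the nuclear activator PA200, had a difference of -0.29 (limma adjusted p = 0.0518), and Psme3 and the inhibitor Psmf1 were at -0.11 and -0.02.

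The number of core subunits called lower depended on 1 library and on the scaling. Without NC6, the mouse with the high-fat diet label, the count went from 13 to 18 of 31, and the members called lower from 14 to 20. The sum of FPKM per mouse was 353950 to 424830 in HFD and 402440 to 489190 in NC. Rescaling each mouse to a common sum moved the median of all tested genes to 0.15 and the median of the core to -0.06. The distance between them was -0.22 as reported and -0.21 after rescaling, but 22 of 31 core subunits then stayed below 0 and 2 passed as lower. With that scaling 3 members were called higher and 3 lower, and over all genes 2100 higher and 334 lower in place of 1092 and 970. Scaling by median ratios gave 12 of 31 as lower. Psmb3 was called in 8 and Psmc5 in 12 of 23 alternatives, and the other 11 core subunits in 21 to 23. The core was low relative to the other genes under each of these scalings, whereas the size of its fall and the number of calls depended on the scale.

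**Figure D3:**
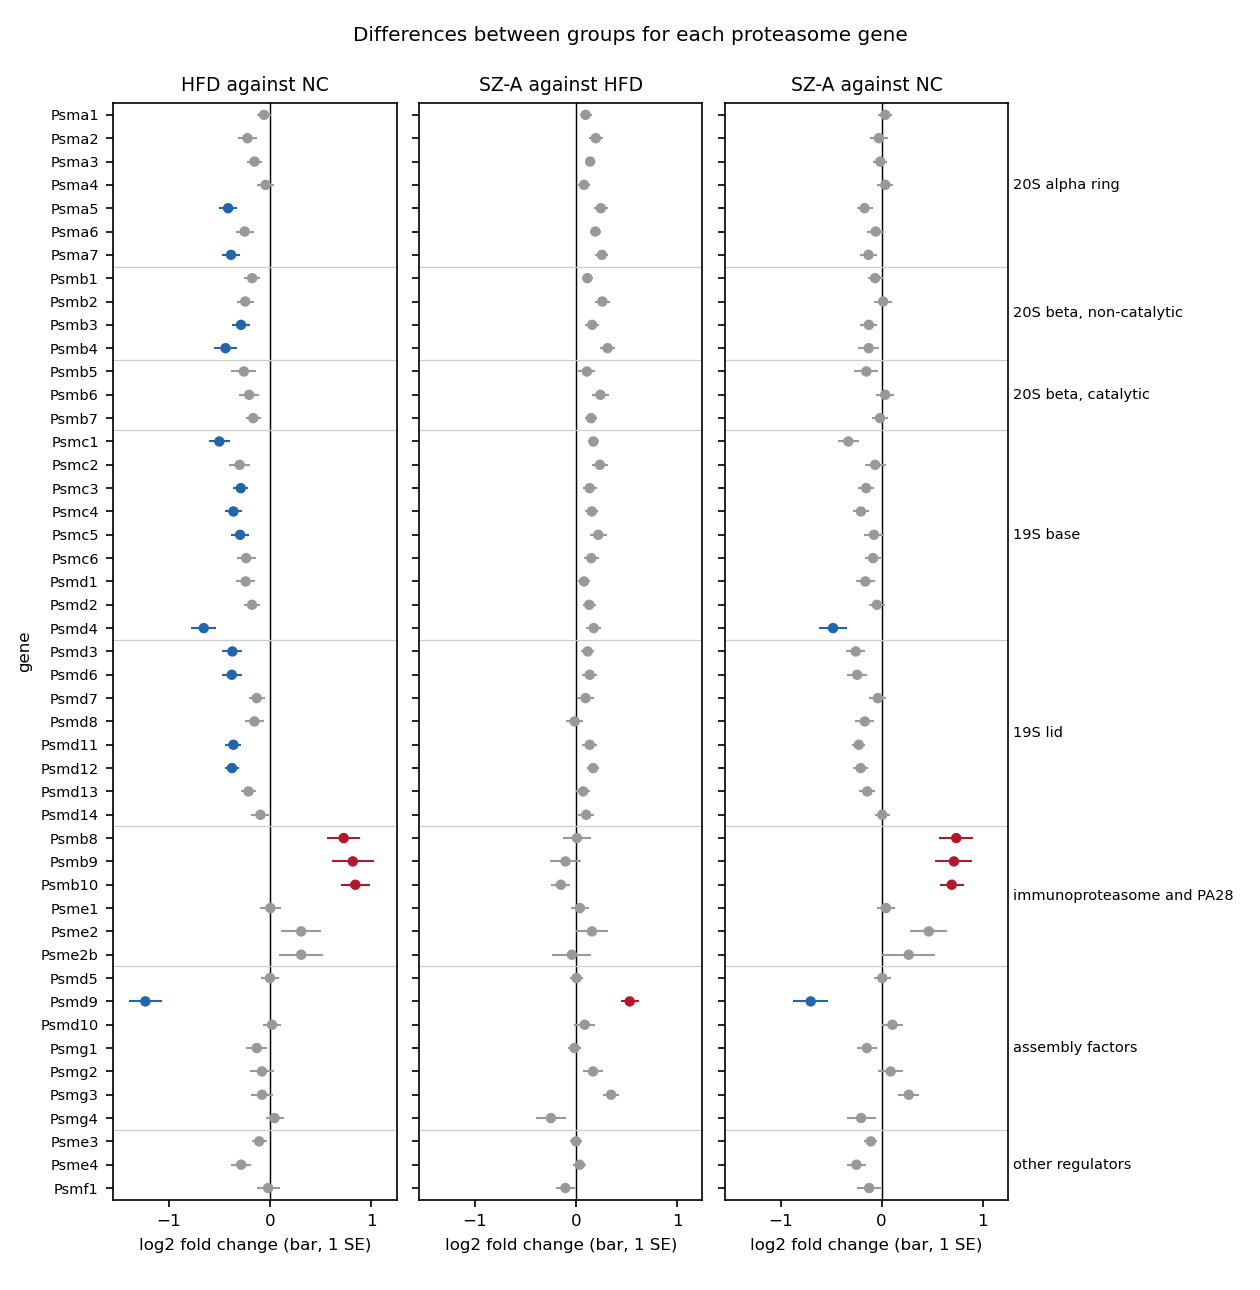
Log2 fold change (points) with 1 SE (bars) of the 47 tested members in the 3 comparisons, from limma on log2(FPKM + 0.1), with called genes in blue (lower) or red (higher) and the others in grey. In HFD against NC the 31 core subunits lay left of 0, in SZ-A against HFD 30 of 31 lay right of 0 with Psmd9 the single called gene, and in SZ-A against NC 5 members were called.

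SZ-A mice lay between HFD and NC mice for most of the core. Compared with HFD, 30 of 31 core subunits had a difference above 0, with a median of 0.15 where that of all genes was 0.03. None passed the test: the count of core subunits called by limma was 0, with 16 at an unadjusted p under 0.05, all of them higher. Voom on the fragments also called 0 of them, and sample weights called 1. Psmb4 had the largest core difference, from 68.8 ± 7.41 FPKM in HFD to 85.3 ± 4.65 in SZ-A (0.31, SE 0.08, limma adjusted p = 0.1004). Psma7 and Psmb2 were at 0.26 (limma adjusted p = 0.103 and 0.144), and Psmb6 at 0.24. Psmd8 was the exception, with 38.2 ± 3.85 FPKM in HFD and 37.9 ± 3.85 in SZ-A. Rescaling to a common sum turned the direction of the core here: its median became -0.03, with 22 of 31 below 0, while the median of all genes became -0.15. The distance of the core from all genes was 0.13 as reported and 0.12 after rescaling. In SZ-A against NC, 26 of 31 core subunits were below 0, with a median of -0.13. Psmd4 was the only core subunit called, as lower (3.23%, against 4.3% of all genes). Without NC5 the median was -0.06, with 20 of 31 below 0. Without NC6 the members called there numbered 8 (3 higher, 5 lower), without NC5 also 8 (5 higher, 3 lower) and without NC4 2. This comparison shares the NC mice with HFD against NC and the SZ-A mice with SZ-A against HFD. HFD against NC and SZ-A against HFD in turn share the HFD mice. Low values in those mice would enter both with opposite sign, so the higher values in SZ-A, for the core and for Psmd9, are not separate from the fall in HFD.

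**Figure D4:**
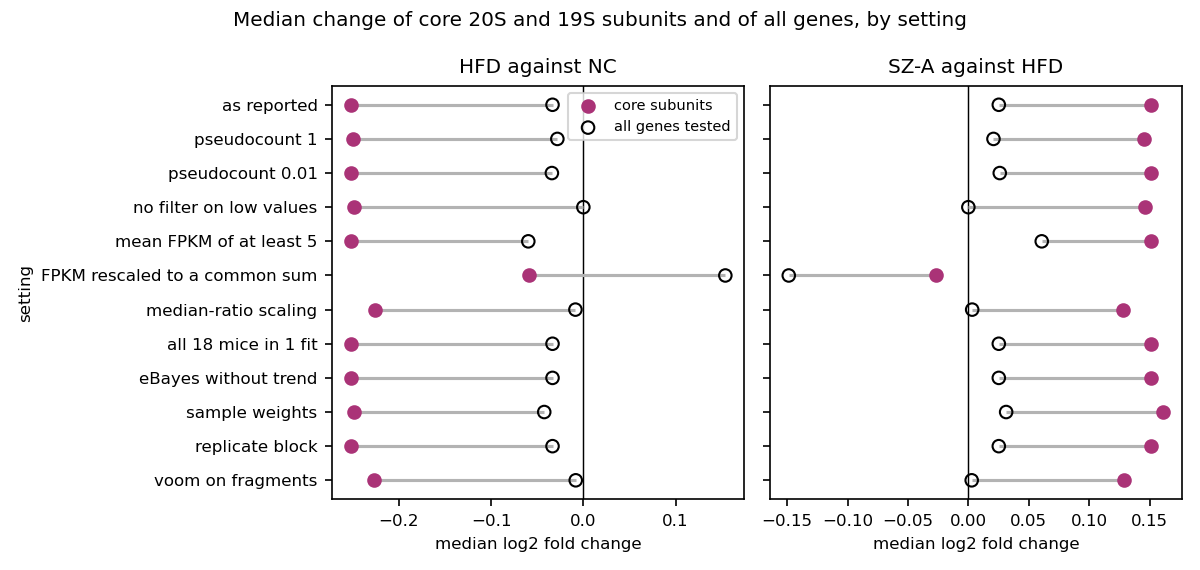
Median log2 fold change of the 31 core subunits (filled; 32 with no filter) and of all genes tested (open) under each setting, for HFD against NC and SZ-A against HFD. Rescaling to a common sum moved both medians together, from -0.25 to -0.06 for the core in HFD against NC, and left the distance between them at -0.21.

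The core subunits also varied together from mouse to mouse. Over the deviations of the 18 mice from their group means, the median Pearson r between core subunits was 0.60 (465 pairs of genes), where the median over all pairs of tested genes was 0.00. Psmd9 had a median r of 0.67 with the core subunits, and Psmb8, Psmb9 and Psmb10 had a median r of 0.56 among themselves and of -0.00 with the core. These correlations describe 18 mice whose genes share a library and its scaling, and the core median of NC5 lay 0.20 above the NC mean and that of NC6 0.24 below it on the log2 scale. The spread of the core between mice differed by group: the median coefficient of variation of a core subunit went from 11.7% among NC mice to 7.58% among HFD mice and 5.93% among SZ-A mice, against 15.9%, 13.2% and 13.4% over all tested genes. For Psmd9 it was 31.2%, 6.16% and 13.9%. Within NC, NC5 had the highest and NC6 the lowest value for most core subunits and for Psmd9. The spread without these mice was not computed.

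The immunoproteasome went the other way. Psmb8, Psmb9 and Psmb10 rose in HFD mice, and in SZ-A mice they stayed above NC. Psmb10, which stands in for Psmb7, had 7.76 to 13.7 FPKM in NC mice (median 9.34), 13.8 to 21.9 in HFD mice (median 17.5) and 14.2 to 16.4 in SZ-A mice (median 15.9). Neither HFD nor SZ-A mice overlapped NC mice, although the highest NC mouse, NC6, lay just under the lowest HFD mouse. It rose by 0.84 in HFD against NC (SE 0.14, limma adjusted p = 0.00128) and by 0.69 in SZ-A against NC (SE 0.12, limma adjusted p = 0.00409). Psmb8, the counterpart of Psmb5, had 3.799 to 6.84 FPKM in NC mice, 6.92 to 10.5 in HFD mice and 6.79 to 10.7 in SZ-A mice, of which SZ-A4 alone fell within the NC range. Its rise was 0.73 in HFD (SE 0.16, limma adjusted p = 0.00670) and 0.74 in SZ-A (SE 0.17, limma adjusted p = 0.0152), both against NC. Psmb9, the counterpart of Psmb6, had 1.80 to 4.08 FPKM in NC mice, 3.94 to 7.07 in HFD mice and 4.14 to 5.69 in SZ-A mice, so that HFD5 alone fell within the NC range. It rose by 0.82 in HFD (SE 0.21, limma adjusted p = 0.0148) and by 0.72 in SZ-A (SE 0.18, limma adjusted p = 0.0273) against NC. The first of these calls was lost with no filter and with a replicate block (20 of 22 alternatives called), and the second with no filter and without any 1 of NC4, SZ-A2, SZ-A3 or SZ-A6 (17 of 22, limma adjusted p up to 0.0929). Between SZ-A and HFD the differences were 0.01, -0.10 and -0.15 for Psmb8, Psmb9 and Psmb10 (limma adjusted p = 0.492 to 0.978). The direction against NC was the same under each scaling, the common-sum rescaling included.

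None of the 3 PA28 genes was called in any comparison, but the sum of Psme2 and Psme2b was not tested. Psme1 had 31.1 ± 4.28 FPKM in NC mice, 31.1 ± 4.02 in HFD mice and 31.8 ± 2.11 in SZ-A mice. Psme2 had 12.7 ± 3.97, 15.5 ± 3.999 and 17.1 ± 3.08 FPKM, a difference of 0.31 in HFD against NC (SE 0.20, limma adjusted p = 0.289) and of 0.47 in SZ-A against NC (SE 0.18, limma adjusted p = 0.125). Psme2b is a retrocopy of Psme2, with 15.3 to 48.9 FPKM over all mice, and fragments of such near-identical genes can be assigned to either, so both values are uncertain. Their summed fragments are given in CPM, scaled to the library size behind the FPKM. They came to 38.8 to 50.1 in NC mice (median 46.0), 46.5 to 64.7 in HFD mice (median 54.2) and 52.5 to 64.5 in SZ-A mice (median 56.8). For this sum every SZ-A mouse lay above every NC mouse, while HFD and NC mice overlapped. The share given to Psme2b ran from 28.8% to 63.6% within NC alone.

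Ratios within a mouse cancel its library scaling, apart from the 0.1 FPKM added. The Psmb10 level was 29.3% to 58.5% of Psmb7 in NC mice (median 34.1%), 60.7% to 89.8% in HFD mice (median 74.8%) and 51.6% to 66.8% in SZ-A mice (median 59.2%). HFD mice lay wholly above NC mice, a 2.01-fold ratio (exact two-sided permutation test, n = 6 and 6, p = 0.00216, the smallest that 924 splits can give; 0.00974 adjusted over the 9 ratio tests). Relative to HFD, in SZ-A mice the ratio fell by 0.30 on the log2 scale (exact permutation p = 0.0108, adjusted 0.0162), with overlap, and it still passed with each mouse left out in turn. Both parts of the ratio entered this fall: Psmb10 itself differed by -0.15 and Psmb7 by 0.15, and neither was called. Psmb8 to Psmb5 went from a median of 3.92% in NC mice to 9.04% in HFD mice and 8.85% in SZ-A mice. It was 1.98-fold higher in HFD than in NC (exact permutation p = 0.00216, adjusted 0.00974), and SZ-A against HFD differed by -0.10 on the log2 scale (exact permutation p = 0.398). Psmb9 to Psmb6 went from a median of 5.67% to 10.8% and 8.22%, 2.04-fold higher in HFD than in NC (exact permutation p = 0.00433, adjusted 0.00974), with a difference of -0.34 in SZ-A against HFD (exact permutation p = 0.0909, adjusted 0.102) that passed without HFD5 (adjusted 0.0341). In SZ-A against HFD, Psmb9 itself differed by -0.10 and Psmb6 by 0.24, and neither was called. All 3 ratios were higher in SZ-A than in NC, by 1.60-fold to 1.85-fold (exact permutation, adjusted p = 0.00974 to 0.0167).

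**Figure D5:**
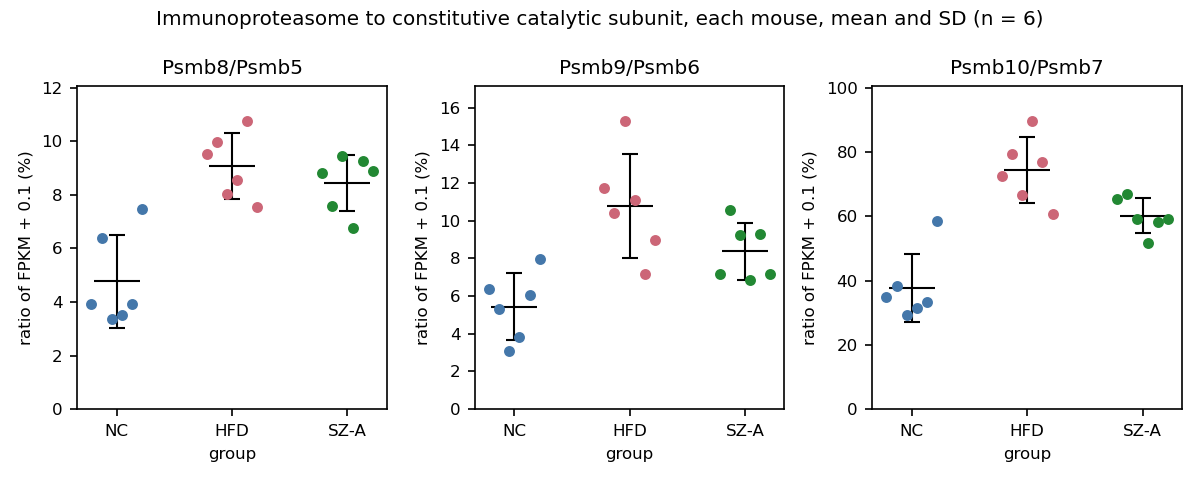
Level of each immunoproteasome catalytic subunit as a percentage of the constitutive subunit it replaces (ratio of FPKM + 0.1) in each mouse (points), with mean and SD (n = 6). For Psmb10/Psmb7 the NC mice reached at most 58.5% and the HFD mice started at 60.7%, with the SZ-A mice between 51.6% and 66.8%.

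Most listed genes of antigen presentation and some markers of macrophages rose along with the immunoproteasome in HFD mice. Of 10 partners in antigen presentation, 7 rose in HFD against NC (70%, against 10.7% of all genes). Among them were the class I light chain B2m (0.41), H2-D1 (0.29) and the peptide transporter subunit Tap1 (0.55). Its partner tapasin, Tapbp (0.39), the trimming peptidase Erap1 (0.42) and the interferon pathway factor Irf1 (0.48) rose too. H2-K1 (0.03), Nlrc5 (0.05) and Tap2 (0.36) were not called. H2-D1 was called in 16, Tap1 in 17 and Irf1 in 13 of 23 alternatives. None of the 10 was called in SZ-A against HFD by limma (0.147% of all genes), also with 0 at an unadjusted p under 0.05 (14.8%). In SZ-A against NC 1 rose, Tapbp (10%, against 5.31% of all genes). Tap1 shares 212 exonic bases with Psmb9 on the opposite strand. The 10 macrophage and Kupffer cell markers summed to 111 to 204 FPKM in NC mice (median 142), 210 to 316 in HFD mice (median 251) and 170 to 251 in SZ-A mice (median 189). Of the 9 tested, 3 rose in HFD against NC (33.3%, against 10.7% of all genes), namely Lyz2, Cd68 and Adgre1. The other 6 were not called, with differences from 0.01 for Timd4 to 1.27 for Marco (limma adjusted p = 0.120). In SZ-A against HFD 1 fell, Cd68 (11.1%, against 0.0685% of all genes). Adgre1 was called in 13 of 23 alternatives and the fall of Cd68 in 11 of 23. Stellate cell markers rose in HFD against NC for 3 of 5 (60%) and endothelial markers for 1 of 5 (20%), against 10.7% of all genes. The 4 adipocyte markers summed to 0.0447 to 7.51 FPKM in NC mice, 20.1 to 135 in HFD mice and 1.019 to 31.1 in SZ-A mice. Only 1 of them passed the filter, Cfd, which made up most of the sum, with means of 2.91 (NC), 52.4 (HFD) and 7.55 FPKM (SZ-A). The single cholangiocyte marker tested, Sox9, was called, as lower, in SZ-A against NC alone (-0.62, limma adjusted p = 0.0226). A different number of cells of a type and a different amount of RNA per cell cannot be told apart in bulk liver, and the part of macrophages in the rise of Psmb8, Psmb9 and Psmb10 was not tested.

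The other genes of the pathway that were called in HFD mice fell. Of 29 tested genes for ubiquitin, shuttle factors, proteasome receptors and regulators, 6 fell in HFD against NC (20.7%, against 9.49% of all genes). None rose (10.7% of all genes). Rps27a, which encodes ubiquitin fused to a ribosomal protein, fell by 1.19 in HFD (SE 0.19, limma adjusted p = 0.00103), from 69.8 to 29.4 FPKM, and had 58.6 in SZ-A (limma adjusted p = 0.204 against HFD). Near-identical copies of ubiquitin and ribosomal protein sequences exist, so the assignment of fragments to Rps27a is uncertain. Ufd1 and Nploc4, cofactors of the segregase Vcp, fell by 0.39 and 0.34, and the shuttle factor Ubqln1 by 0.29, a call that held in 8 of 23 alternatives. The receptor Adrm1 (-0.29) and the lid subunit Sem1 (0.02) did not pass the test. The largest upward differences were those of Nfe2l1, the factor that drives proteasome genes when proteasome activity is short, at 0.36 (SE 0.15, limma adjusted p = 0.0932), and of Nfe2l2, the antioxidant factor, at 0.16 (limma adjusted p = 0.180). For SZ-A against HFD, 0 of the 29 were called by limma, with 5 at an unadjusted p under 0.05, all higher (8.74% of all genes).

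Levels in FPKM can be compared between genes only per length, and the table divides by the summed exons of all transcripts. That length was 0.81 to 3.28 times the longest coding transcript of a member (median 1.57), and 2.79 times for Psmd9, which lowers its FPKM relative to a count over the coding transcript alone. In NC mice the constitutive catalytic subunits had 26.6 to 119 FPKM and the immunoproteasome subunits 3.09 to 9.83. Exons of 14 members share bases with another gene, from 14 for Psme1 to 1849 for Psmd9, and the fragments there could be counted for either gene or for neither.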

How the data were processed

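Poly-A RNA from the liver of 18 mice was read in pairs on a NovaSeq instrument, and the authors aligned the reads to mm10 (GRCm38) with HISAT2 2.0.5. The submitters' processing notes also name featureCounts 1.5.0-p3. The FPKM table deposited by the authors lists every gene, those at 0 included. Its FPKM times gene length gave whole fragments for 100% of the values, within 0.05 of a fragment, from which depth was taken. The library size behind the FPKM was 0.9325 to 1.0248 times the fragments on genes in NC mice. It was 0.9983 to 1.1414 times in HFD mice and 0.9718 to 1.0468 times in SZ-A mice. Values below 1 mean that this size was not a plain count of fragments, and a higher value lowers the FPKM of a mouse.

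Groups came from the sample titles. Each comparison was fitted on its own 6 and 6 mice in R 4.3.3 with limma 3.58.1 (lmFit, eBayes with trend) on log2(FPKM + 0.1), for 10216 genes with a mean of at least 1 FPKM, and the fit was tested on simulated data. Ratios were tested in scipy 1.17.1. Coordinates and exons are those of GENCODE M21, with the table's start and end for 47 of 49 members. Mice were separate animals, and no pair of a group had the same counts within sampling noise. The replicate numbers do not pair the mice (correlations of deviations from -0.117 to 0.292).

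The members were taken by symbol, but this gene family, the gene lists and the tests were chosen with earlier results of these data known. The genes named are Psmd9, every called member, the immunoproteasome and constitutive catalytic subunits, the highest and lowest member of each subcomplex in HFD against NC and SZ-A against HFD, members under the filter, called pathway genes with the 2 largest changes each way (some of the listed genes are not reported here), and genes within 20 kb of Psmd9. The alternatives were pseudocounts of 1 and 0.01, no filter, a mean of at least 5 FPKM, a common sum per mouse, median-ratio scaling, 18 mice in 1 fit, no trend, sample weights, a replicate block, voom on the fragments, other fold thresholds and each mouse left out.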

Additional observations from a re-analysis of the deposited data

Results flagged for a closer look

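Single mice lay far from the rest of their group in 9 of 111 groups of 6 values examined (Dixon's test at the 95% level, which chance passes in about 1 of 20 groups). NC5 was high for the ATPases Psmc1 (114 FPKM, next highest 79.2) and Psmc2 (25.3, next 19.2), for the ubiquitin receptor Psmd4 (71.7, next 50.6) and for the chaperone Psmg3 (2.84, next 2.07). NC6, the mouse whose diet label reads high-fat, had a Psmb10 to Psmb7 ratio of 58.5%, where the next NC mouse had 38.4%. HFD2 was low for Psmd1 (13.3 FPKM, next lowest 14.5). SZ-A2 was low for Psmd3 (21.8, next 24.2) and high for Psmf1 (5.83, next 4.72), and SZ-A5 was high for Psmg4 (17.0, next 11.4).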

How the results depend on the processing

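No called member turned direction under any alternative. The 17 members called in HFD against NC became 6 (3 higher, 3 lower) after rescaling to a common sum and 1, Psmd9, at a fold change over 2, and ranged from 15 to 23 with 1 mouse left out, the highest without NC6. In SZ-A against HFD the count of 1 became 0 with no filter, after rescaling to a common sum, with all 18 mice in 1 fit, without trend, with a replicate block and at a fold change over 2, and 3 with sample weights. With 1 mouse left out it was 0 to 1. The replicate numbers do not pair the mice, and the block left 15 members called in HFD against NC and 5 in SZ-A against NC. The 5 members called in SZ-A against NC became 1 with no filter, 8 with sample weights and 0 at a fold change over 2, and 2 to 8 with 1 mouse left out (2 without NC4, 3 without SZ-A1, SZ-A2, SZ-A3 or SZ-A6, 8 without NC5 or NC6). The cause was not tested, other than that no filter added genes to the adjustment, 27266 in all. With 1 mouse left out, the log2 difference of the ratios in HFD against NC was 0.94 to 1.14 for Psmb10/Psmb7, 0.90 to 1.13 for Psmb8/Psmb5 and 0.87 to 1.15 for Psmb9/Psmb6. In SZ-A against HFD it was -0.36 to -0.24, -0.15 to -0.04 and -0.45 to -0.24, and in SZ-A against NC 0.64 to 0.84, 0.80 to 1.03 and 0.53 to 0.80. Psma8 and Psmb11 entered the test with no filter only.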
